A study of Mus musculus with 20 samples.

Results

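Radial spoke and central pair genes were followed across male mouse meiosis through 9 genes: Rsph1, Rsph4a, Rsph6a and Rsph9 of the radial spoke head, and Hydin, Spag6, Spag16, Spag17 and Spef2 of the central pair apparatus. They were the genes of a written list, and every probe set (the group of short oligonucleotides that reads 1 stretch of a transcript) annotated to 1 of them alone was taken. This gave 16 probe sets of the 45037 on the array and 9 genes of the 18193 with a probe set of their own. The beating axoneme of cilia and of the sperm tail holds outer microtubule doublets around a central pair of single microtubules. Radial spokes reach inward from the doublets to projections of the central pair, and the contact between them regulates the dynein motors that bend the tail. The spermatid builds this axoneme after meiosis, and loss of spoke head or central pair proteins is a known cause of immotile sperm and of ciliary disease.

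Testis cells of C57BL/6 x DBA/2J F1 males, aged 10 to 16 weeks by the sample labels, were stained with the DNA dye Hoechst 33342 and sorted by fluorescence into 8 fractions. The fractions were spermatogonia (4 arrays), pre-leptotene (3), leptotene-zygotene (3), early-pachytene (1), mid-pachytene (2), late-pachytene (1) and diplotene spermatocytes (2), and round spermatids (4). The labels name no mutation or treatment, and each of the 20 Affymetrix MOE430 version 2 arrays held RNA pooled over several sorts. The p-values measure the spread between these pools. Signals were read as log2 of the deposited GC-RMA signal, where a value under 5 was taken as low, and limma tested differences over the 22396 probe sets that reached 5 in log2 on 2 or more arrays. A difference on this scale understates the change in RNA where a value is near background, and the signal of 1 gene was not set against that of another because probe sets differ in brightness.

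Marker genes were read to check the labels, and they set neighbouring fractions apart only in part. The summed signal of 7 spermatogonial markers was 23090 to 31714 in spermatogonia, 27191 to 32830 in pre-leptotene and 24981 to 34084 in leptotene-zygotene cells, so that they did not set spermatogonia apart, and 8874 to 12993 in round spermatids. The 7 leptotene-zygotene markers summed to 21134 to 27238 in leptotene-zygotene and 22860 to 29671 in mid-pachytene cells. The summed signal of 7 pachytene-diplotene markers (Hspa2, Ldhc, Ccna1, Piwil1, Mybl1, Pgk2 and Adam2) was 6100 to 24368 in spermatogonia, 2730 to 6952 in pre-leptotene, 13852 to 30246 in leptotene-zygotene, 47329 in early-pachytene and 71294 to 87342 in mid-pachytene cells. It was 92510.5 in the late-pachytene array, 90655 to 107212 in diplotene cells and 85004 to 112668 in round spermatids, which it did not set apart. The 8 round spermatid markers (among them Prm1, Prm2, Tnp1 and Acrv1) summed to 42871 to 166373 in spermatogonia, 24199 to 37110 in pre-leptotene cells, 13632 in the late-pachytene array and 89343 to 119712 in round spermatids. Markers of late cells thus gave signal on arrays of early ones, and their part in the results was not tested. The 6 macrophage markers summed to 845 to 2459 in spermatogonia, where Cd68 and Adgre1 were under a log2 value of 5 on all arrays and the other 4 had a mean of 5 or more, and to 774, 33.3 and 44.4 on pre-leptotene replicates 1, 2 and 3. The 8 Sertoli cell markers summed to 782 to 1264 in spermatogonia, 614 to 1481 in pre-leptotene and 1340 to 2368 in leptotene-zygotene cells, with 4 of 8 at a mean of 5 or more in each. Their sums were 2655 in the early-pachytene array, 571 and 2477 in mid-pachytene cells, 384 in the late-pachytene array, 303 and 2366 in diplotene cells and 147 to 2748 in round spermatids, while Sox9, Amh and Gata4 were under 5 on all 20 arrays. The part of macrophage and Sertoli cell transcripts in the results was not tested.

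All but 1 of the 9 genes, Rsph4a, were read above a log2 value of 5 on every array from early-pachytene on, and 7 of these 8 followed much the same course, with Spag6 apart from it in pachynema. The lowest fraction mean of each of the 8 was in pre-leptotene cells, and the highest was in late-pachytene, diplotene or round spermatid cells. Of the range between the lowest and the highest fraction mean, the 8 genes had covered a median of 35.0% in leptotene-zygotene cells (24.4% to 53.9%), 70.3% in the early-pachytene array (47.7% to 76.5%), 78.6% in mid-pachytene (51.1% to 94.1%), 92.7% in the late-pachytene array (44.6% to 100%) and 95.9% in diplotene cells (62.4% to 100%). Spag6 had the lowest shares from mid-pachytene to diplotene, at 51.1%, 44.6% and 62.4%, below its own 69.1% on the early-pachytene array. Pearson correlations between pairs of the 8 genes over the 8 fraction means ran between 0.787 and 0.996 with a median of 0.968 over 28 pairs, a description in which all points share their arrays. Pairs of genes outside the list were not read in this way, so the values do not set the members apart from other genes. Spef2 had entered the tests only through the fractions from pachynema on, since 1 of its 10 earlier arrays reached a log2 value of 5, so that its difference between late and early cells was in part set by that filter. The other 7 passed it on the earlier arrays alone, Hydin on 2 of the 10, both of leptotene-zygotene cells.

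**Figure D1:**
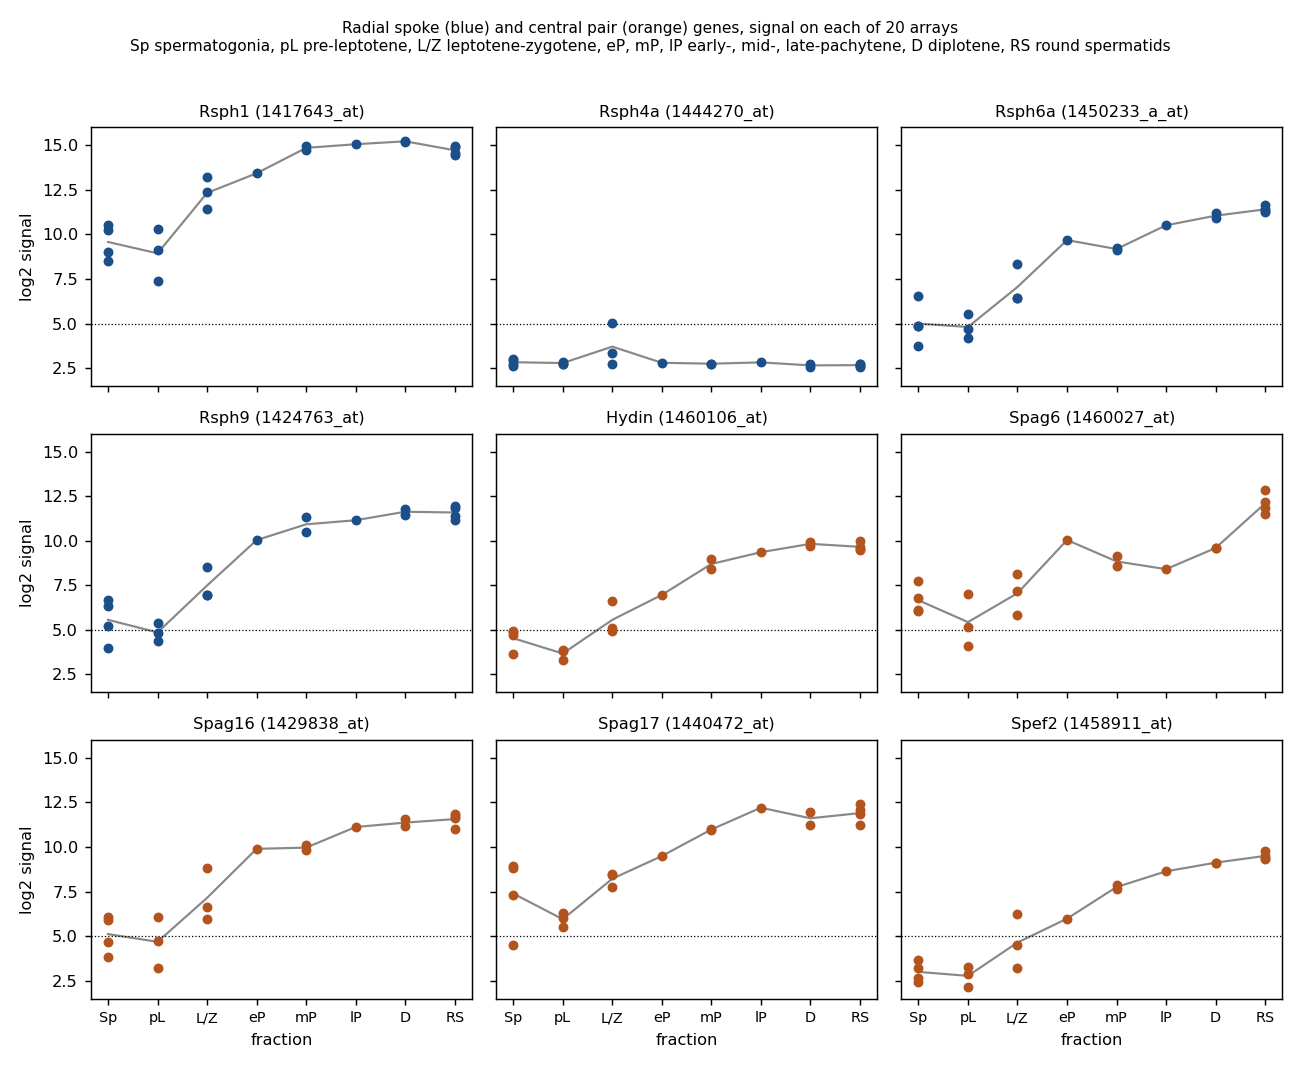
Log2 signal (y axis) of the brightest probe set of each of the 9 genes on the 20 arrays, by fraction in the order of meiosis (x axis); points are arrays, grey lines join fraction means and the dotted line marks a log2 value of 5. Rsph4a stays under that line on 19 of 20 arrays, while the other 8 genes are lowest in pre-leptotene cells and high from mid-pachytene on.

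The promoters of the member genes were read next. RefSeq windows from 250 bases before to 50 bases after the start of transcription (build GRCm38.p6) were at hand for 7 of the 9 genes, all but Rsph1 and Rsph4a. The letters GTTGCC, a half-site of the X-box bound by RFX factors of ciliary genes, stood on either strand in 4 of these 7 windows, those of Hydin, Spag6, Spag16 and Spef2, and in 12.5% of all 32851 windows. TAACGG or TAACTG, the core of the site of MYB factors such as the pachytene regulator MYBL1, stood in 3 of 7 windows (Rsph6a, Spag6 and Spag16) and in 12.6% of all. The FOXJ1 letters GTAAACA (3.65% of all windows) and the CRE letters TGACGTCA (1.79%) were in 0 of 7. A match describes these letters only and is not a bound site. The windows with a GTTGCC are shown for the place of these letters, and that of Rsph6a because it is the testis paralog of Rsph4a, with every match of the 4 motifs in capitals. They lie at chr8:110266727-110267026 (plus strand) for Hydin, chr2:18698772-18699071 (plus strand) for Spag6, chr1:69826720-69827019 (plus strand) for Spag16, chr15:9748819-9749118 (minus strand) for Spef2 and chr7:19054437-19054736 (plus strand) for Rsph6a, and are written 5′ to 3′ along the gene's strand.
Hydin: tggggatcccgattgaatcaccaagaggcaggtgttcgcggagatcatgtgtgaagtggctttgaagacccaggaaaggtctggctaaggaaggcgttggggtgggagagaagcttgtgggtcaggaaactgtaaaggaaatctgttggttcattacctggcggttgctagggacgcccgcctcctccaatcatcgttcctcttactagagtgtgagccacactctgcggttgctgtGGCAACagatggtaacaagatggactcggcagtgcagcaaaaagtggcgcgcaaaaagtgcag
Spag6: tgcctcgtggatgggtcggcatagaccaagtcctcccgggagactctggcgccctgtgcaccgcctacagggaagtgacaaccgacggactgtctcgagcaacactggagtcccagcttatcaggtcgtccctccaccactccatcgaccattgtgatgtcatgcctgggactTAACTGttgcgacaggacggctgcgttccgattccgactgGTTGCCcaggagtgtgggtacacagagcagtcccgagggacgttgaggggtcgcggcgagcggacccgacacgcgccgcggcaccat
Spag16: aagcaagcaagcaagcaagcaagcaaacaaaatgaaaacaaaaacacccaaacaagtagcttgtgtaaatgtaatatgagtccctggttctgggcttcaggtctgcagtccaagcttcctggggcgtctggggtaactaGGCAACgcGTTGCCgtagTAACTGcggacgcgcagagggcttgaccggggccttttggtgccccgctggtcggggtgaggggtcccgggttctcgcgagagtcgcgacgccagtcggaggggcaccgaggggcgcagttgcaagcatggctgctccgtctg
Spef2: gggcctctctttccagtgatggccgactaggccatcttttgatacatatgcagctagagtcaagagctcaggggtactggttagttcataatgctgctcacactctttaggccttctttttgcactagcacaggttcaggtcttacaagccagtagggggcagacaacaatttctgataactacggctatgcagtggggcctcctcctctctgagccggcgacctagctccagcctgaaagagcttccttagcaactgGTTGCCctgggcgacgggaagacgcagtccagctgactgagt
Rsph6a: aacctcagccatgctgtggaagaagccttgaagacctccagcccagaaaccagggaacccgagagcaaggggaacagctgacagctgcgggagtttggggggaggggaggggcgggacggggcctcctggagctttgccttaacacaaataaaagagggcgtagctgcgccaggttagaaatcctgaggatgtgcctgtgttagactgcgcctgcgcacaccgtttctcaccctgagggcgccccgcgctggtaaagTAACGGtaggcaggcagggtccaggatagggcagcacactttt

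In Spag16 the motif occurs on both strands, beginning 111 and 103 bases before the start, and a TAACTG follows it at 93 bases before. The Hydin match begins 13 bases before the start on the opposite strand, the Spag6 match 37 bases before it and the Spef2 match at base 9 of the transcript.

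Among the spoke head genes, Rsph1 had the largest difference at the leptotene-zygotene step. RSPH1 is a spoke head protein first known in mouse as a testis protein of meiotic cells. Its log2 signal was 11.41, 12.36 and 13.20 on the leptotene-zygotene arrays, against 7.40, 10.31 and 9.10 on the pre-leptotene arrays. The difference of 3.39 (SE 0.64), a 10.5-fold higher signal, passed the test (limma, adjusted p = 0.0172). The mid-pachytene arrays had 14.72 and 14.97, a further 2.52 above leptotene-zygotene cells (SE 0.72, limma, adjusted p = 0.016). No later step passed the test, with 15.05 in the late-pachytene array, 15.23 and 15.20 in diplotene cells and 14.45 to 14.94 in round spermatids. Leptotene-zygotene cells also stood above spermatogonia (2.75, SE 0.60, limma, adjusted p = 0.0324), the 1 pair of neighbours in the order of its levels that passed.

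Rsph9, the gene of another spoke head protein, showed the largest difference of the 8 tested genes across the start of pachynema. It had 10.51 and 11.33 in mid-pachytene cells, against 6.98, 6.98 and 8.52 in leptotene-zygotene cells, 3.43 higher (SE 0.66, 10.8-fold, limma, adjusted p = 0.00162). The single early-pachytene array already had 10.03, above all 3 leptotene-zygotene arrays, but that difference (2.54, SE 0.83) did not pass (limma, adjusted p = 0.0822). Leptotene-zygotene cells were 2.63 above pre-leptotene cells, which had 4.39, 5.37 and 4.82 (SE 0.59, limma, adjusted p = 0.0332). Round spermatids had 11.17 to 11.93 and diplotene cells 11.45 and 11.80, and the groups overlapped.

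Rsph6a and Rsph4a are paralogs, and the arrays gave signal above the filter for 1 of them. RSPH6A is the form of the sperm tail in mice, and RSPH4A is known for motile cilia of the airway. Rsph6a had 9.13 and 9.23 in mid-pachytene cells, against 6.42, 6.42 and 8.31 in leptotene-zygotene cells (2.12 higher, SE 0.65, limma, adjusted p = 0.0236). Its highest levels were 11.25 to 11.63 in round spermatids, 2.22 above mid-pachytene cells (SE 0.62, limma, adjusted p = 0.00732). This pair lies outside the steps counted below and was read with no share of all probe sets beside it. Rsph4a, with 1 probe set, had 2.55 to 3.35 on 19 of the 20 arrays and 5.03 on leptotene-zygotene replicate 2. It was therefore not tested, and a single probe set near background does not show that the transcript was missing. Of 6 markers of multiciliated epithelium, 4 were measured, with sums of 216 to 309 in pre-leptotene cells and 3120 to 4932 in round spermatids, and Foxn4 and Cdhr3 were under a log2 value of 5 on every array.

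Among the central pair genes, Hydin encodes the very large protein of a central pair projection whose loss causes hydrocephalus in mice. Its log2 signal was 8.43 and 8.96 in mid-pachytene cells, against 4.96, 5.12 and 6.62 in leptotene-zygotene cells, 3.13 higher (SE 0.46, 8.76-fold, limma, adjusted p = 0.000336). This was the lowest adjusted p of the 8 tested genes at that step. Leptotene-zygotene cells were 1.89 above pre-leptotene cells (SE 0.41, limma, adjusted p = 0.0325), where the 3 arrays had 3.33, 3.81 and 3.88 and were all low. No spermatogonia or pre-leptotene array reached 5, so that this difference was in part set by the filter. With values under 5 raised to 5 that difference was 0.58 and did not pass (limma, adjusted p = 0.565, and 0.0159 to 1 over all alternatives). Its second probe set, 1431589_at, had 2.45 to 4.52 over the 20 arrays and was not tested.

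Spef2, whose protein sits on a central pair projection and is needed for the sperm tail in mice, was low at the outset. The spermatogonia and pre-leptotene arrays had 2.17 to 3.65. It had 7.62 and 7.89 in mid-pachytene cells, against 3.23, 4.49 and 6.23 in leptotene-zygotene cells (3.11 higher, SE 0.61, limma, adjusted p = 0.00185), a test it entered only through the later fractions. Round spermatids (9.34, 9.37, 9.51 and 9.80) were 1.74 above mid-pachytene cells (SE 0.58, limma, adjusted p = 0.0196). This pair lies outside the steps counted below, and no share of all probe sets is given for it. Rsph6a and Spag6 (3.25, limma, adjusted p = 0.00136) passed there too, and Hydin, Rsph1, Rsph9, Spag16 and Spag17 did not.

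Spag16 and Spag17 encode the mouse counterparts of the Chlamydomonas central pair proteins PF20 and PF6. Spag16 had 9.85 and 10.09 in mid-pachytene cells, against 5.96, 6.65 and 8.85 in leptotene-zygotene cells (2.81 higher, SE 0.84, limma, adjusted p = 0.0206). Spag17 had 11.03 and 10.94 in mid-pachytene cells, against 8.44, 7.74 and 8.49 in leptotene-zygotene cells (2.76 higher, SE 0.90, limma, adjusted p = 0.031). In both genes the mid-pachytene arrays lay above the leptotene-zygotene arrays, with a wider gap in Spag17. Spag17 was also the gene with the widest spread in spermatogonia, at 8.93, 8.85, 4.51 and 7.30, and the pre-leptotene arrays (5.51, 6.33 and 6.03) fell inside that spread.

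Spag6, the mouse counterpart of PF16, was highest in round spermatids. It had 10.04 in the early-pachytene array, 8.56 and 9.12 in mid-pachytene, 8.40 in late-pachytene, 9.61 and 9.57 in diplotene cells and 12.86, 12.16, 11.84 and 11.51 in round spermatids. Round spermatids were thus 2.50 above diplotene cells (SE 0.71, 5.66-fold, limma, adjusted p = 0.0171) with no overlap. Arrays did not overlap at this step in Rsph6a and Spef2 either, whose differences did not pass. The share of all probe sets without overlap at this step was not kept, so the lack of overlap in these 3 genes is no result about the members. In Spag6, mid-pachytene cells were 1.78 above leptotene-zygotene cells and did not pass (SE 0.75, limma, adjusted p = 0.0861). Without diplotene replicate 1 the step into round spermatids was 2.52 (limma, adjusted p = 0.104), and without diplotene replicate 2 it was 2.48 (limma, adjusted p = 0.0827), so that it did not pass without either. Over all alternatives its adjusted p from limma lay between 0.00229 and 0.104. Within the 2 array projects that held both fractions it was 3.25 and 2.27. Round spermatid markers were likewise lower in late-pachytene cells, summing to 46022 in early-pachytene, 53857 to 55339 in mid-pachytene, 13632 in late-pachytene, 27345 to 27991 in diplotene and 89343 to 119712 in round spermatid arrays, and their part in the course of Spag6 was not tested. A second mouse gene, Spag6l, is nearly the same as Spag6 and may share signal with it. Its probe set did not pass at the late step (round spermatids minus diplotene -0.03, limma, adjusted p = 0.991), and stood 2.78 higher in mid-pachytene cells, against leptotene-zygotene cells (limma, adjusted p = 0.0385).

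Set side by side, the steps of meiosis differed in how many of the 8 tested genes passed. In pre-leptotene cells against spermatogonia, 0 were higher and 0 lower, where 0.0714% of all tested probe sets were higher and 0.415% lower, although all 8 differences were below 0 (median -0.67) and 1 had an unadjusted p under 0.05 in limma. In leptotene-zygotene against pre-leptotene cells, 3 of 8 were higher (Rsph1, Rsph9 and Hydin), where 1.86% of all probe sets were. The median difference was 2.26, beside -0.00032 over all probe sets, and all 8 had an unadjusted p under 0.05 in limma. Hydin and Spef2 reached a log2 value of 5 on no spermatogonia or pre-leptotene array, so their differences were partly set by the filter. In the early-pachytene array against leptotene-zygotene cells, 0 of 8 passed where 1.62% of all were higher, with a median of 1.97, beside -0.26 over all, and 5 with an unadjusted p under 0.05 in limma. That step rests on 1 array, which was assumed to vary like the arrays of other fractions.

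Across the start of pachynema as a whole, in mid-pachytene against leptotene-zygotene cells, 7 of 8 genes were higher and 0 lower, where 13.7% of all probe sets were higher. The median difference was 2.79, beside -0.15 over all probe sets. In all 8 genes both mid-pachytene arrays lay above the 3 leptotene-zygotene arrays, which 24.7% of all probe sets showed. Both counts include Spef2, which entered the tests only through the fractions from pachynema on, so that its place in them was partly set by the filter. By the size of the difference, between 0.612% (Rsph9) and 8.68% (Spag6) of all tested probe sets exceeded a member. Median differences were smaller at the later steps, being 1.16, 0.77 and 0.47 at those that rest on the single early- or late-pachytene array. That array was assumed to vary like the arrays of other fractions, which limits the counts there. Of the 8, 0 passed in mid-pachytene against the early-pachytene array (1.65% of all higher, 2 with an unadjusted p under 0.05 in limma), 0 in the late-pachytene array against mid-pachytene cells (1.51% of all, 0 unadjusted) and 0 in diplotene cells against the late-pachytene array (0.00893% of all, 0 unadjusted). In round spermatids against diplotene cells, 1 of 8 was higher (Spag6), where 10.9% of all were, with a median difference of 0.24, beside -0.10 over all. That count is near the share of all probe sets and no result about the members.

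**Figure D2:**
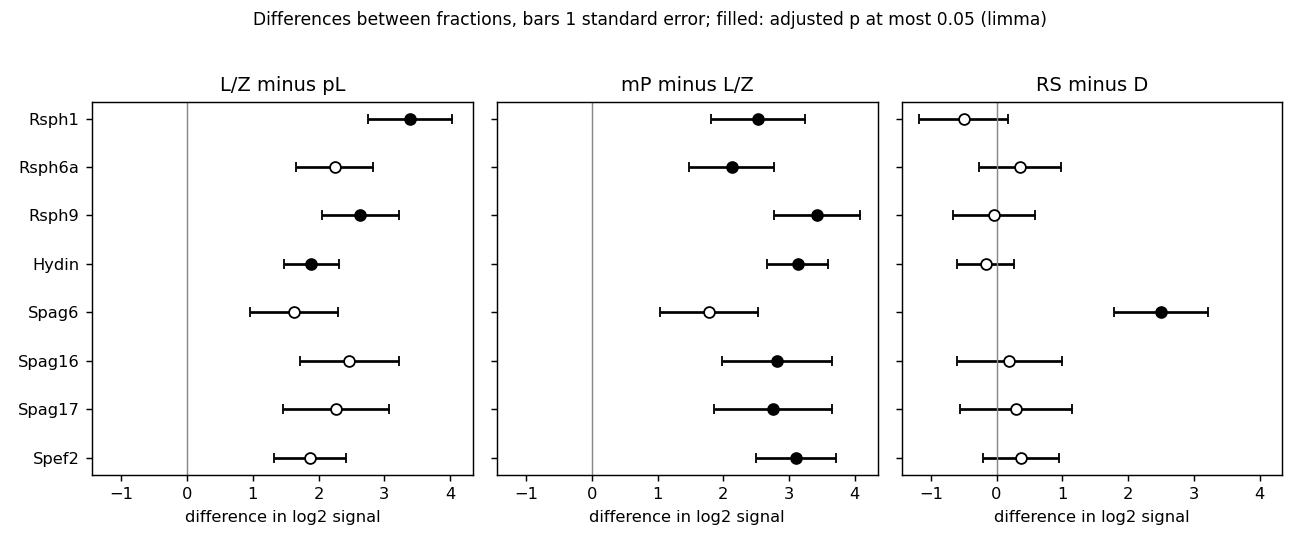
Difference in log2 signal (x axis) of the 8 tested genes for 3 pairs of fractions, with bars of 1 standard error from limma; filled points have an adjusted p of at most 0.05. All points lie right of 0 in leptotene-zygotene minus pre-leptotene (L/Z minus pL, 3 filled) and in mid-pachytene minus leptotene-zygotene (mP minus L/Z, 7 filled), while in round spermatids minus diplotene (RS minus D) Spag6 at 2.50 is the filled one.

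Between the mean of the mid-pachytene, diplotene and round spermatid fractions and the mean of the spermatogonia, pre-leptotene and leptotene-zygotene fractions, all 8 genes were higher in the later cells, where 34.5% of all probe sets were. The differences ran from 3.79 in Spag6 (SE 0.40, limma, adjusted p = 2.9e-07) over 4.31 in Spag17, 4.65 in Rsph1, 4.80 in Hydin, 4.92 in Rsph6a, 5.31 in Spag16 and 5.32 in Spef2 to 5.40 in Rsph9 (SE 0.35, limma, adjusted p = 1.25e-09), with a median of 4.86, beside -0.24 over all. In all 8 genes each of the 8 later arrays lay above each of the 10 earlier arrays, which 13.7% of all probe sets showed. Spef2 is in both counts of 8 though it passed the filter only through the later fractions, which in part set its result. In sorted bulk RNA, more cells of a late type in a fraction and more transcript per cell cannot be told apart.

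Arrays of 1 fraction were not alike in these genes. In the 3 earliest fractions their order was that of the mean log2 signal of the pachytene-diplotene markers. The mean log2 signal of the 8 genes was 6.82, 6.95 and 8.54 on the 3 leptotene-zygotene arrays, where the mean of the 7 markers was 9.70, 10.12 and 10.996. On the pre-leptotene arrays the genes had 4.51, 5.96 and 4.95 and the markers 7.48, 8.97 and 8.02. On the spermatogonia arrays the genes had 5.66, 6.80, 4.73 and 6.23 and the markers 8.71, 9.56, 7.98 and 8.97. By summed signal the markers had 13139, 24368, 6100 and 7840 on these arrays, so that replicates 1 and 4 changed places. The arrays richest in the markers, left out below, were picked by summed signal. In mid-pachytene cells the genes had 9.98 and 10.3 and the markers 12.1 and 12.6. The order was not shared later on. Diplotene cells had 11.18 and 11.17 for the genes and 12.8 and 13.2 for the markers, and round spermatids replicate 4 had the highest marker mean of its fraction (13.24) and the lowest gene mean (11.49, against 11.56 to 11.59 on the other 3). The part of late cells in the levels of the early fractions was not tested. With the array richest in the markers left out of each of the 3 fractions (spermatogonia replicate 2, pre-leptotene replicate 2 and leptotene-zygotene replicate 3, a choice made after the data were seen), 8 of 8 genes passed in mid-pachytene against leptotene-zygotene cells, and 6 of 8 in the early-pachytene array against leptotene-zygotene cells. These arrays also had the highest mean of the 8 genes in their fractions, so that leaving out leptotene-zygotene replicate 3 raised the differences by construction, and the added calls support nothing further. The count of 6 was the same without leptotene-zygotene replicate 3 alone.

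**Figure D3:**
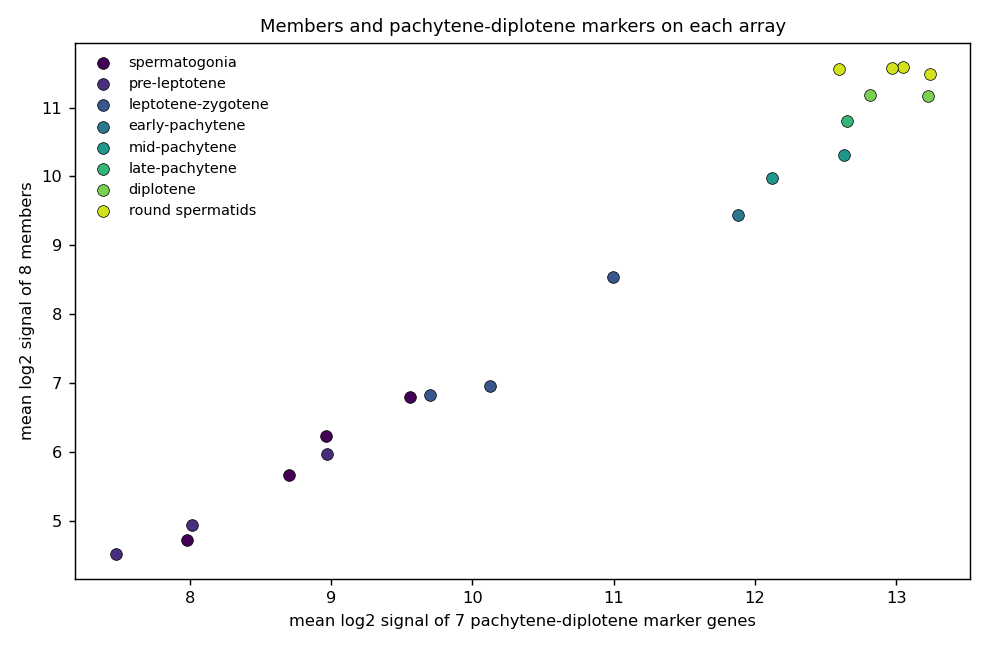
Mean log2 signal of the 8 tested genes (y axis) against the mean log2 signal of 7 pachytene-diplotene marker genes (x axis); each point is 1 of the 20 arrays, coloured by fraction. Leptotene-zygotene replicate 3, at 8.54 for the genes and 10.996 for the markers, lies between the other 2 arrays of its fraction and the early-pachytene array.

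The count in leptotene-zygotene against pre-leptotene cells rested on single arrays. It was 0 without pre-leptotene replicate 1 or 3 or without leptotene-zygotene replicate 3, 1 without round spermatids replicate 2, 5 without pre-leptotene replicate 2 or spermatogonia replicate 3, and 6 without leptotene-zygotene replicate 1. Calls over all probe sets at this step, 453 as reported, moved too. They ran from 36 to 781 without single arrays and from 151 to 1031 under the other alternatives. The counts of members were not set against the share in each setting. The arrays came from several array projects, numbered in a supplementary table whose columns were matched by equal signals, and with project as a block 6 of 8 passed. Within the 2 projects that held both fractions the differences were 4.01 and 4.10 in Rsph1, 2.59 and 3.70 in Rsph9, and 1.63 and 2.74 in Hydin. The count of 7 across the start of pachynema was 3 without leptotene-zygotene replicate 1 or mid-pachytene replicate 2 and 4 without leptotene-zygotene replicate 2 or mid-pachytene replicate 1. Rsph9, Hydin and Spef2 passed with any single array left out, and Rsph1, Rsph6a, Spag16 and Spag17 lost their call without 1 or more arrays. The count was 7 with project as a block. The total over all probe sets at this step moved under the alternatives too, and its range is given at the end. Within the 1 project that held both fractions, each of the 8 genes was higher in the mid-pachytene array, by 2.61 (Rsph1) to 4.35 (Rsph9).

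Hydin, Spag16, Spag17 and Spef2 had more than 1 probe set. Their second probe sets were dimmer and reached a log2 value of 5 on 0 of the 10 earlier arrays, so that they entered the tests, where they did, through later fractions alone, and a dim probe set and a later onset cannot be told apart. Their values are given with no test. The second probe set of Spag16, 1431732_at, was at 2.66 and 2.75 in mid-pachytene cells, against 2.48 to 3.03 in leptotene-zygotene cells, while the first stood at 5.96 or more from leptotene-zygotene cells on. It reached 4.12 in the late-pachytene array, 4.10 and 6.26 in diplotene cells and 4.10, 5.93, 6.42 and 6.24 in round spermatids. Mouse Spag16 is known to give a long form and a shorter form of the testis, and which of them either probe set reads was not analysed here. In Spef2, 1446747_at had 3.68 and 4.60 in mid-pachytene cells, 6.54 in the late-pachytene array, 6.55 and 4.70 in diplotene cells and 7.61, 7.62, 7.35 and 7.26 in round spermatids. The second Spag17 probe set, 1459142_at, differed by 2.06 between mid-pachytene and leptotene-zygotene cells, being higher in mid-pachytene. The remaining probe sets, 1441708_at and 1431958_at of Spag16 and 1459122_at of Spef2, were under a log2 value of 5 on all arrays and were not tested. The difference between probe sets was not tested.

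**Figure D4:**
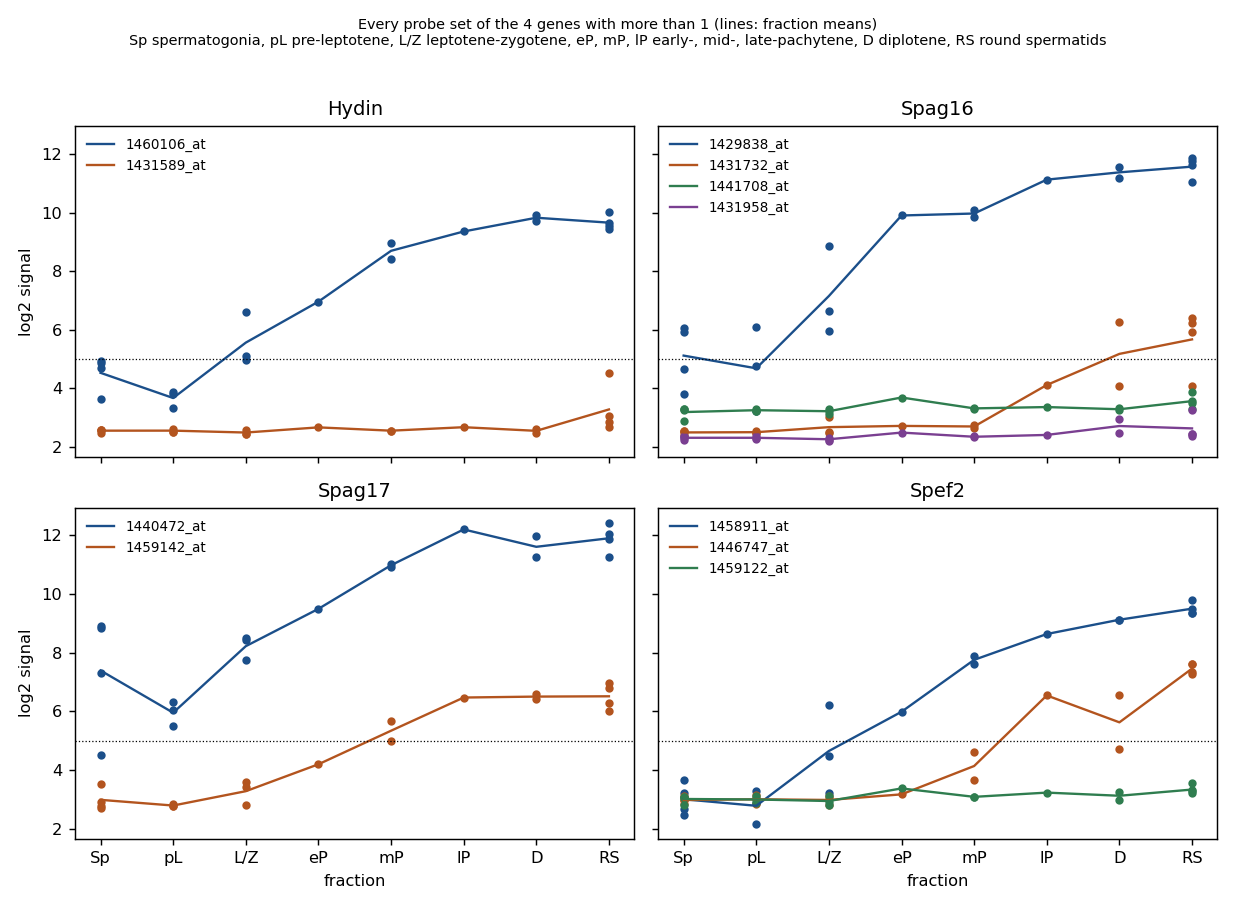
Log2 signal (y axis) of every probe set of Hydin, Spag16, Spag17 and Spef2 by fraction (x axis), with points for arrays, lines through fraction means and a dotted line at a log2 value of 5. The second probe sets of Spag16 (1431732_at) and Spef2 (1446747_at) stay under the line up to mid-pachytene and pass it on arrays of later fractions, while their first probe sets are above it from the early-pachytene array on.

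In the order of its fraction means, each gene was read against its neighbours. Of the 7 neighbouring pairs in each gene, 1 differed in Rsph1 (leptotene-zygotene above spermatogonia) and 1 in Rsph6a (mid-pachytene above leptotene-zygotene), and no neighbours differed in the other 6 genes. The order was diplotene, late-pachytene, mid-pachytene, round spermatids in Rsph1 from the top, and round spermatids, diplotene, late-pachytene in Rsph6a, Spag16 and Spef2. It was diplotene, round spermatids, late-pachytene in Rsph9 and Hydin, late-pachytene, round spermatids, diplotene in Spag17, and round spermatids, early-pachytene, diplotene in Spag6. At the bottom, leptotene-zygotene cells, spermatogonia and pre-leptotene cells stood in this order in all 8 genes. Over the 8 fraction means, and among 4708 single-gene probe sets with a span of at least 4 in log2, the mean course of the 8 genes was most like Cfap43, Ptpdc1, Ccdc175, Armc3 and Cfap97 (Pearson correlations 0.999, 0.999, 0.999, 0.998 and 0.998). Single genes had their nearest match in Cfap65 for Rsph1 (0.997), Lrrc23 for Rsph9 (0.998), Dnaic1 for Hydin (0.997), Taf7l2 for Spag16 (0.999), Lrrcc1 for Spag17 (0.996), Inafm2 for Spef2 (0.998), Gm26611 for Rsph6a (0.999) and 1700029I15Rik for Spag6 (0.997).

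Other genes of the same apparatus were counted beside them. Of 32 other radial spoke and central pair genes written in a list, 28 were measured and 27 tested. Of the 27, Rsph14, Cfap61, Cfap221, Stk36 and Iqca reached a log2 value of 5 on 1 of the 10 earlier arrays and entered the tests only through the later fractions, so that a higher signal there was in part set by the filter, and 22 passed it on the earlier arrays alone. In mid-pachytene against leptotene-zygotene cells 21 of 27 were higher, 16 of them among the 22, and 0 lower, where 13.7% of all probe sets were higher, with a median of 2.39. The largest differences were in Wdr66 (3.91, limma, adjusted p = 0.00336) and Cfap61 (3.29), whose proteins belong to the calmodulin- and spoke-associated complex at the base of the spokes, in Cfap54 (3.38, limma, adjusted p = 0.000166), a central pair protein, and in Lrrc23 (3.34, limma, adjusted p = 0.00532), a spoke head protein of sperm. The smallest were in Rsph3a and Iqub (0.81 each), Morn3 (0.98) and Dydc2 (1.03), none of which passed (limma, adjusted p between 0.193 and 0.386). In leptotene-zygotene against pre-leptotene cells 10 of 27 were higher (1.86% of all), among them Cfap65 (3.49), Cfap206 (3.32) and Armc3 (3.08), and 25 of 27 were higher in the later than in the earlier fractions (34.5% of all, and 20 of the 22), all but Dydc2 and Morn3. The early-pachytene array stood higher than leptotene-zygotene cells in 4 of 27 (1.62% of all, and 2 of the 22), namely Iqca (3.04), Rsph14 (2.69), Maats1 (2.25) and Ak8 (1.93). In round spermatids against diplotene cells 3 of 27 were higher, a share near the 10.9% of all probe sets and no result about the list, namely Iqca (2.95), Morn3 (2.78) and Dydc2 (2.08), and 1 was lower, Spef1 (-0.90, limma, adjusted p = 0.0249), whose protein binds microtubules of the central pair.

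Genes of other parts of the tail were set beside them as a description. Of 20 axonemal dynein genes 13 were tested, and 9 were higher in mid-pachytene cells, set against leptotene-zygotene cells (median 2.62), where 13.7% of all probe sets were. Of 10 genes listed for the outer dense fibres and fibrous sheath, which clad the axoneme of sperm but not of cilia, 9 were tested. They were Odf1, Odf2, Akap3, Akap4, Ropn1, Gapdhs, Oaz3, Spata18 and Tekt4, and whether each is confined to these structures was not examined. In mid-pachytene against leptotene-zygotene cells 0 of these 9 passed, though all differences were above 0 (0.86 to 1.88, median 1.24, beside -0.15 over all probe sets). Round spermatid markers summed to 27480 to 44159 in leptotene-zygotene cells, and their part in this step was not tested. In round spermatids against diplotene cells 7 of 9 were higher (median 1.96, and 10.9% of all). Among them were Akap4 at 2.45 (limma, adjusted p = 0.00784), Gapdhs at 2.27 (limma, adjusted p = 0.0171) and Odf1 at 1.80 (limma, adjusted p = 0.0449). The radial spoke and central pair members had 7 of 8 (with Spef2, which entered the tests only through later fractions) and 1 of 8 at these steps. The 1 of 8 is near the 10.9% of all probe sets and no result about the members. The same 9 genes had a median of -2.35 in pre-leptotene cells against spermatogonia, a step at which the round spermatid markers were lower too, and the part of spermatid transcripts in it was not tested.

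**Figure D5:**
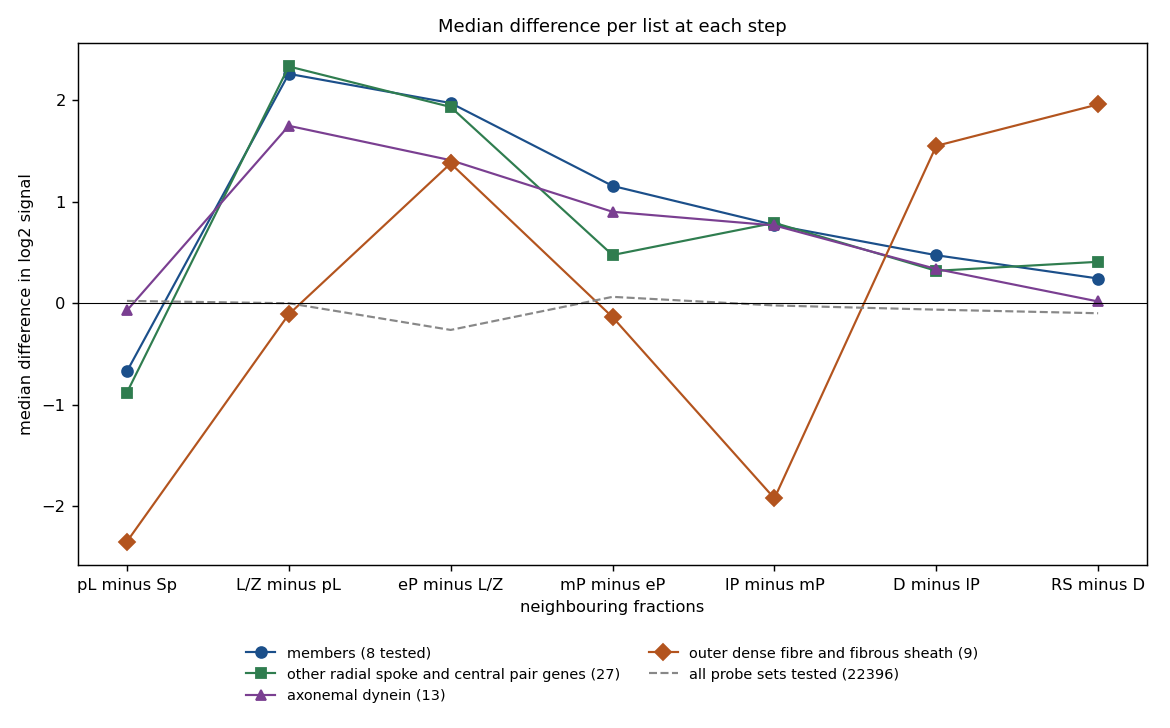
Median difference in log2 signal (y axis) of 4 gene lists and of all tested probe sets at each of 7 steps between neighbouring fractions (x axis; Sp spermatogonia, pL pre-leptotene, L/Z leptotene-zygotene, eP, mP and lP early-, mid- and late-pachytene, D diplotene, RS round spermatids). The members and the other radial spoke and central pair genes peak at L/Z minus pL (2.26 and 2.33) and at eP minus L/Z (1.97 and 1.93), whereas the outer dense fibre and fibrous sheath list peaks at RS minus D (1.96).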

How the data were processed

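Labelled RNA was hybridised to 20 Affymetrix MOE430 version 2 arrays of 8 sorted fractions. The authors normalised the arrays by GC-RMA in GeneSpring, and the deposited values are signal intensity on a linear scale for 45037 probe sets; which version of GC-RMA they used is not given in the sources used. Of these probe sets 34945 had 1 gene symbol in the platform annotation, 932 several and 9160 none, and genes were named only from the first. Median signals of single arrays lay between 11.1 and 12.7, and the number of arrays limits the precision.

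From the deposited intensities log2 values were computed. limma 3.58.1 in R 4.3.3 (lmFit, contrasts.fit, eBayes, two-sided, 12 residual and 3.69 prior degrees of freedom) fitted the 8 fractions over all 20 arrays. Benjamini-Hochberg adjustment ran at 0.05 over the 22396 probe sets with log2 of at least 5 on at least 2 arrays. The probe set with the highest mean stood for its gene. The 9 members were named, with the 4 highest and 4 lowest of the other spoke and central pair genes and the nearest matches by correlation; Spag6l, genes of other lists and members of the early steps were named after their values were seen. Members, lists and tests were chosen with earlier results of these data known. Array projects came from equal signals in a supplementary table of the study, which served no other purpose. Alternatives changed the normalisation, low values, variance model, blocks, probe set per gene and single arrays, and 1, leaving out 3 arrays together, was added after the data were seen. The fit was tested on simulated data. Promoters were RefSeq windows (GRCm38.p6), and figures used Python 3.11.15 with matplotlib 3.10.9.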

Additional observations from a re-analysis of the deposited data

Results flagged for a closer look

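In the fractions of 4 arrays, an array was singled out where its gap to the nearest other array exceeded the critical share of the range of the 4 by Dixon's test. Chance passes about 1 in 20 groups, and 5 of 32 groups (the 16 probe sets in spermatogonia and in round spermatids) did. Hydin in spermatogonia replicate 3 had a log2 signal of 3.63, below the other 3 arrays. The other 4 were in probe sets under the filter or near background: Spag16 1431732_at (2.41) and 1441708_at (2.90) and Spef2 1459122_at (2.81) in spermatogonia replicate 4, all low, and Spag16 1431958_at in round spermatids replicate 4, high at 3.28. All 5 values lie under a log2 value of 5, and whether spermatogonia replicate 4 differs in processing was not tested.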

How the results depend on the processing

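The higher signal of the 8 genes in the later than in the earlier fractions kept its direction in 232 of 232 values under the alternatives and passed in 229. The count of 8 was 5 with the lowest probe set of each gene. The count of 7 in mid-pachytene against leptotene-zygotene cells was 4 with no filter and 4 with the lowest probe sets, and 3 to 8 when single arrays were left out. In leptotene-zygotene against pre-leptotene cells the count of 3 was 0 with no filter, 6 with project as a block, and 0 to 6 without single arrays. In the early-pachytene array against leptotene-zygotene cells the count of 0 was 2 after another quantile normalization, 4 with a floor at log2 5, 3 with log2 of signal plus 16, 6 without the 3 arrays richest in pachytene markers, and 0 to 6 without single arrays. For the other steps, the count of 0 in mid-pachytene against early-pachytene cells was 1 with the floor, the count of 0 in pre-leptotene cells against spermatogonia was 1 (lower) with project as a block and 0 to 1 without single arrays, and the count of 1 in round spermatids against diplotene cells was 0 to 1. With the lowest probe set, Hydin stood at -0.065 in leptotene-zygotene against pre-leptotene cells (limma, adjusted p = 1), a reversal in a probe set near background.

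Arrays with the same replicate number deviated together from their fraction means: the correlation was over 0.1 in 33 of 37 such pairs (median 0.335), against 14 of 96 pairs with other numbers (median -0.115), and in 21 of 21 pairs of the same project (median 0.439). The array that correlated best with each of 18 arrays had its number in 14 and its project in 16. Not every pair of the same number was over 0.1 and the labels give the number no meaning, so the arrays were not treated as paired by number. Every pair of the same project was over 0.1 (lowest 0.123), yet the main tests left project out. It was fitted as a block among the alternatives only. With replicate number as a block, over the 18 arrays whose labels give one, 7 genes passed in mid-pachytene against leptotene-zygotene cells, 4 in leptotene-zygotene against pre-leptotene cells (Spag16 in addition, 2.47, limma, adjusted p = 0.0383, and 0.00605 to 1 over all alternatives), 8 in later against earlier fractions, 1 in round spermatids against diplotene cells and 0 in pre-leptotene cells against spermatogonia. Steps with the early- or late-pachytene array could not be fitted so.

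Totals over all probe sets moved more, over all alternatives: 9 to 927 (109 as reported, pre-leptotene against spermatogonia), 36 to 1031 (453, leptotene-zygotene against pre-leptotene), 189 to 2344 (1065, early-pachytene against leptotene-zygotene), 121 to 1021 (419, mid- against early-pachytene), 194 to 1809 (959, late- against mid-pachytene), 0 to 197 (2, diplotene against late-pachytene), 2557 to 7344 (5612, round spermatids against diplotene) and 2100 to 9087 (6479, mid-pachytene against leptotene-zygotene). Another quantile normalization moved the share of higher calls in the early-pachytene step to 59.5%, against 34.0%, in the late-pachytene step to 53.0%, against 35.3%, and in the pre-leptotene step to 31.6% (25.0% with median centring), against 14.7%. It moved the median of all probe sets to -0.09, against -0.26, in the early-pachytene step and to -0.09, against -0.24, in later minus earlier fractions. Values near background and the 1 or 2 arrays of some fractions limit the early steps most.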
